A study of Mus musculus with 2 samples.

Results

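The potassium channel genes of mouse brain were described as 76 genes, the members, chosen by name and abundance. Of 99 gene symbols that start with Kcn among the 31053 genes counted, Kcne2, Kcnj13 and symbols ending in os or Rik were left out, which left 95. A member needed at least 50 unique molecular identifiers (UMIs, each a counted RNA molecule) over both samples, and 19 symbols fell short. Just inside this limit were Kcnk7 with 50 UMIs, Kcnh8 with 53 and Kcne1l with 58, and just outside it Kcne3 with 49, Kcnmb2 with 47 and Kcnj14 with 41. Kcnk15 and Kcnmb3 had 0 UMIs.

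The members held 34 voltage-gated subunits, 11 auxiliary subunits, 11 2-pore domain channels, 10 inward rectifiers and 8 calcium- or sodium-activated channels. The last 2 were noncoding: Kcnq1ot1, a long antisense RNA from the Kcnq1 locus, and Kcnmb4os2, whose symbol ends in a digit. Families were set by gene symbol and not by the gating of each channel, and Kcnu1 was counted with the calcium- or sodium-activated channels.

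Single cells of mouse brain were sequenced from the 3' end of their RNA in 2 pooled samples, each a group of its own. Sorted brain came from male mice of 3 and 12 months and had passed fluorescence-activated cell sorting, with a gate that the sources used here do not name. Males and females of 2 and 24 months (the age label reads 240 for the older mice) gave the total brain sample, which was not sorted by its label. Both samples mix wild type (WT) mice with STING-KO mice, which lack an adaptor of DNA sensing, with 2 mice grouped per genotype, and neither strain nor allele is given. Each matrix pools 4 barcode suffixes that no source ties to an age or genotype, so the values per suffix are used here only to show spread. With 1 sample per group no test between groups was possible, and sort, age, sex and library cannot be told apart.

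Potassium channels let potassium ions leave or enter a cell and so set its resting voltage and the shape and rate of its electrical signals. Voltage-gated channels open when a neuron fires, inward rectifiers and 2-pore domain channels carry current near rest, and calcium- and sodium-activated channels answer to ions that enter during activity. In brain, astrocytes take up the potassium that neurons release, pericytes set vessel tone through channels opened by falling ATP, and microglia and lymphocytes use potassium efflux in activation.

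The starts of 6 genes on which the results below turn are shown, 1 or 2 for each kind of cell: Kcnj8 for mural and NK cells, Kcnj10 for glia, Kcnc1 for granule neurons, Kcnh4 and Kcnip2 for neurons, and Kcnn4 for T cells. Each RefSeq sequence (GRCm38.p6) runs 5′ to 3′ on the gene's strand, from 250 bases before to 50 bases after the annotated start. Capitals mark the GC box GGGCGG or its reverse complement CCGCCC.
Kcnj8: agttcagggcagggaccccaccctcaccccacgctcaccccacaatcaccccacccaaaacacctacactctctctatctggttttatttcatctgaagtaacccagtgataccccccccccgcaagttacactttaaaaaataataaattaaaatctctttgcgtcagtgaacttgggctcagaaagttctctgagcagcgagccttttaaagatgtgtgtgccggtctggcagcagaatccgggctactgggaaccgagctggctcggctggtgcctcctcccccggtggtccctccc
Kcnj10: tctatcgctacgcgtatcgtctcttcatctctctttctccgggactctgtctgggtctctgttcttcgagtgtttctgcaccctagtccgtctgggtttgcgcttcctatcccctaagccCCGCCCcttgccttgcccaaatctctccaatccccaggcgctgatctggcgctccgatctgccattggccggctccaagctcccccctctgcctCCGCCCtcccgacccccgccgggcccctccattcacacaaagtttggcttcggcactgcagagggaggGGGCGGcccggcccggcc
Kcnc1: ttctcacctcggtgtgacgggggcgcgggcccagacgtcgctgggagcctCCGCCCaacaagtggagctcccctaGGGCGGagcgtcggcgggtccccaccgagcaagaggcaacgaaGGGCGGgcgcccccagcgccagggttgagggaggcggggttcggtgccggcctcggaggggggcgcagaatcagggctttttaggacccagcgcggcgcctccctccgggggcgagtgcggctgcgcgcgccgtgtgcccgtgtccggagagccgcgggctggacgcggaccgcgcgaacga
Kcnh4: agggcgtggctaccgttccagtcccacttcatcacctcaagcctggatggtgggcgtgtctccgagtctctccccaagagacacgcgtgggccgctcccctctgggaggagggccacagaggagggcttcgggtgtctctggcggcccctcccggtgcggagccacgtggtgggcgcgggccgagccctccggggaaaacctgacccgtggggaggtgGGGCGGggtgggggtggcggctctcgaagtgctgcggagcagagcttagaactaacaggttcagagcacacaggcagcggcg
Kcnip2: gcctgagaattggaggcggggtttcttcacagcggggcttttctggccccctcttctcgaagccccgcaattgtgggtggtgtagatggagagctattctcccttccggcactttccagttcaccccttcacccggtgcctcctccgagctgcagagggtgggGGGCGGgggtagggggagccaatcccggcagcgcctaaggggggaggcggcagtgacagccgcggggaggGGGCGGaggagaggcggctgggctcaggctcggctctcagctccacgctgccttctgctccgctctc
Kcnn4: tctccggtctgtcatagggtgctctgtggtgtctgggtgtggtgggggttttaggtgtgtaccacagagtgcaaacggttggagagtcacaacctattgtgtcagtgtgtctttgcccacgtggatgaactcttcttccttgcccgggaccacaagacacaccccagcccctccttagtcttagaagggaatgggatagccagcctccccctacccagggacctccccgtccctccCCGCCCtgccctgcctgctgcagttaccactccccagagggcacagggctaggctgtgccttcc
They lie at chr6:142571565-142571864 (minus strand) for Kcnj8, chr1:172340960-172341259 (plus) for Kcnj10, chr7:46396218-46396517 (plus) for Kcnc1, chr11:100759729-100760028 (minus) for Kcnh4, chr19:45816014-45816313 (minus) for Kcnip2 and chr7:24370013-24370312 (plus) for Kcnn4.
The table held 77 starts for 54 of the 76 members. A GC box was found in 50.6% of these 77 starts and in 35.7% of all 32851 starts of the same length, and a TATA box (TATAAA, either strand) in 3.90% and 13.6%. The half-site TTCAGCACC of the repressor REST, searched on both strands, was found in 0 of the 77 and in 0.371% of all. Kcnc1 had the highest share of G and C of the 6, 74.7%, and Kcnj8 the lowest, 53.3%, against a median of 60.3% for the members and 52.7% for all. The starts of Kcnj8 held 0 GC boxes and those of Kcnj10 and Kcnc1 held 3 each. These are matches of letters and not sites of binding.

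Of 13499 barcodes of the sorted sample (36822467 UMIs), 10076 passed a minimum of 500 genes and a maximum of 10% mitochondrial UMIs, and of 14674 of the total sample (48226525 UMIs), 9367. Cells were clustered without any Kcn gene and clusters were named "-like" from marker lists. The total sample held 5189 neuron-like, 684 astrocyte-like, 455 oligodendrocyte-like, 131 oligodendrocyte precursor-like, 692 endothelial-like, 120 mural-like (pericytes and smooth muscle), 83 fibroblast-like and 614 microglia-like cells, and the sorted sample mainly 4451 microglia-like and 2185 choroid plexus-like cells with 90 to 670 cells of each of 6 other immune types. The suffix "-like" is left off below. In the total sample 904 cells and in the sorted sample 873 cells stayed unnamed. Barcode sequences found under more than 1 suffix numbered 85 in the sorted and 23 in the total sample, and 5 were shared between samples. Markers of neurons were counted in other types too: the 8 neuron markers summed to 13805 UMIs per 1000000 (CPM) in neurons and to 21.5% of that level in astrocytes, 19.8% in oligodendrocyte precursors, 11.8% in fibroblasts, 8.17% in mural cells, 4.26% in oligodendrocytes, 2.70% in microglia and 2.36% in endothelial cells. In each of these types all 8 had UMIs, and in oligodendrocytes the highest of the 8 stood at 312% of its neuron level, so that these markers are not all particular to neurons. In the immune types of the sorted sample they summed to 0.0445% to 0.253% of the neuron level, with 7 of the 8 at 0 in NK cells. Within astrocytes, 2 clusters of 86 and 110 cells held 38.9% and 44.0%, and a cluster of 119 oligodendrocyte precursors held 22.2%.

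Levels are the UMIs of a gene summed over the cells of a type, as CPM, and brackets give exact 95% Poisson intervals that cover counting error only. A gene was called for a compartment (neuron, glial, vascular or immune), or for a type, by its highest level there. This level had to rest on at least 10 UMIs and 10 CPM and be at least 2-fold that of any compared type outside it. For the ratio, 1 CPM was added to both levels. Only types with at least 50 cells in the sample were compared, and choroid plexus, erythroid, neuroblast and unnamed cells were in no comparison. Among the immune types of the total sample, only microglia reached this size. For calls of compartments and of their types, all neuron types were pooled into 1 neuron level. A gene called outside neurons can therefore stand as high or higher in a single type of neuron. The same call was made for all 16083 genes with at least 50 UMIs, and the share of them called is the background. Levels are compared between types for 1 gene and not between genes. Of the 76 members, 31 overlap another counted gene, 2 of them on the same strand (Kcnip1 and Kcnk4), and their reads may not be told apart. In such summed counts, more expressing cells and more RNA per cell cannot be told apart.

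Neurons held the most of this gene family. Without Kcnq1ot1, the members summed to 6186 CPM in neurons, 3658 in oligodendrocyte precursors, 3510 in astrocytes, 2107 in mural cells, 1494 in oligodendrocytes, 923 in fibroblasts, 516 in microglia and 237 in endothelial cells. In the total sample 23 of 76 members (30.3%) were called for neurons, where 4.68% of all genes were. For glia 9 members (11.8%) were called against 7.5% of all genes, and for vascular types 7 (9.21%) against 8.86%. For the immune compartment, which here held microglia alone, 2 (2.63%) were called against 3.67%. The median member was 0.15 higher (log2) in neurons than in the highest other type, where the median of all genes was −0.90. Thus the members' share lay well above the background for neurons and near it for vascular and immune types. By family, 12 of 34 voltage-gated subunits were called for neurons, 4 of 11 auxiliary subunits, 4 of 10 inward rectifiers, 2 of 8 calcium- or sodium-activated channels and 1 of 11 2-pore domain channels. Among the inward rectifiers, 9 of 10 were called for some compartment. In all 41 members (53.9%) were called for some compartment, against 24.7% of all genes, and 35 for none.

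**Figure D1:**
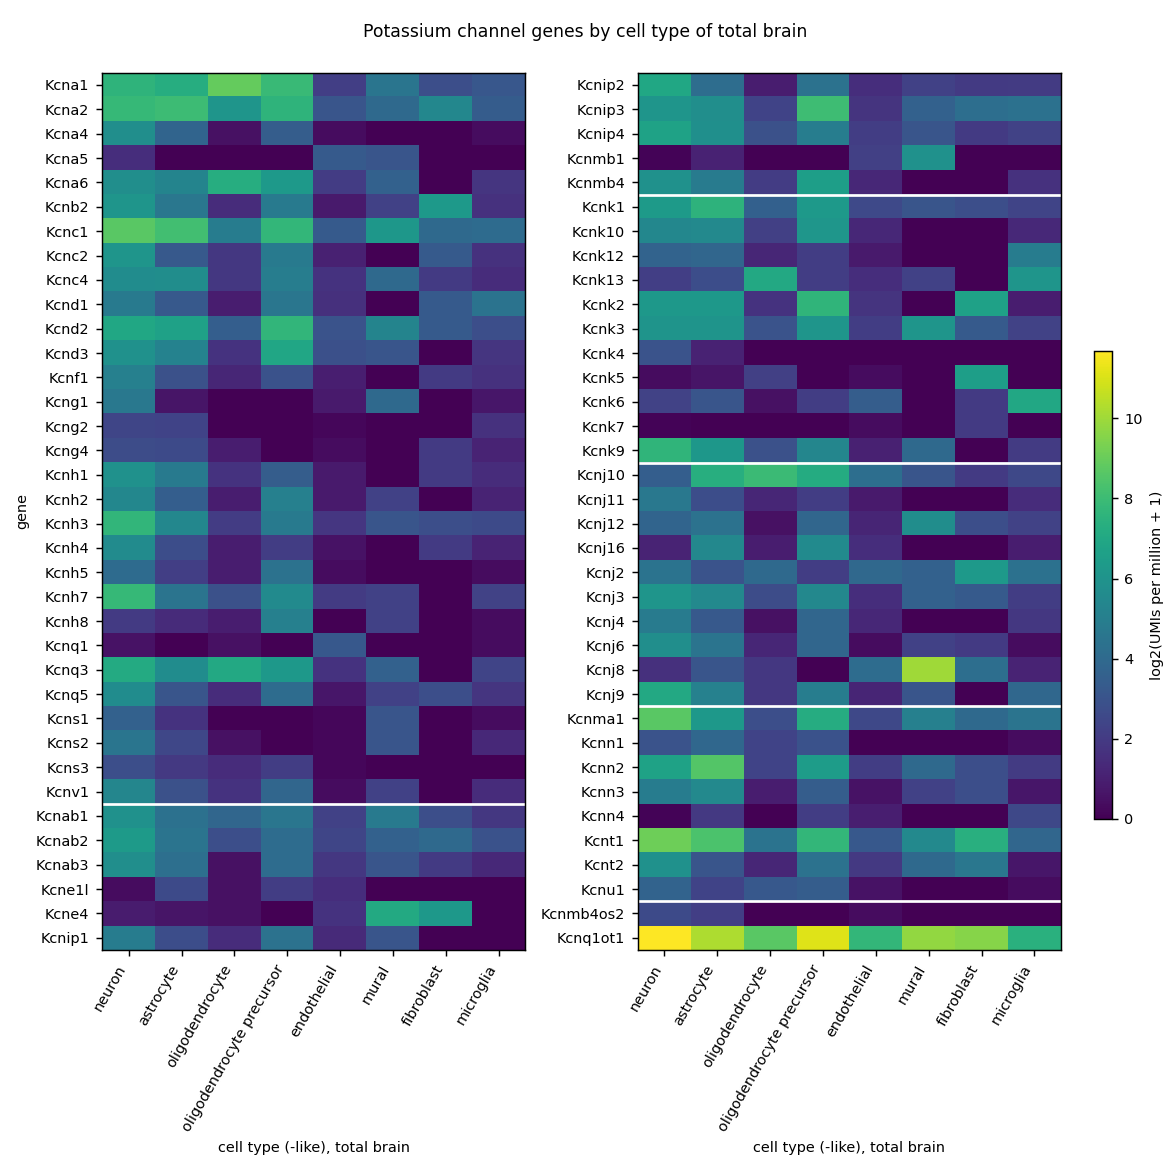
Levels of 72 of the 76 members in 8 cell types of total brain, as log2(UMIs per 1000000 + 1), with 1 row per gene and white lines between families. Colours compare types within a row: most voltage-gated rows are brightest in neurons, and Kcnj8 stands out in mural cells and Kcnk6 in microglia.

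**Figure D2:**
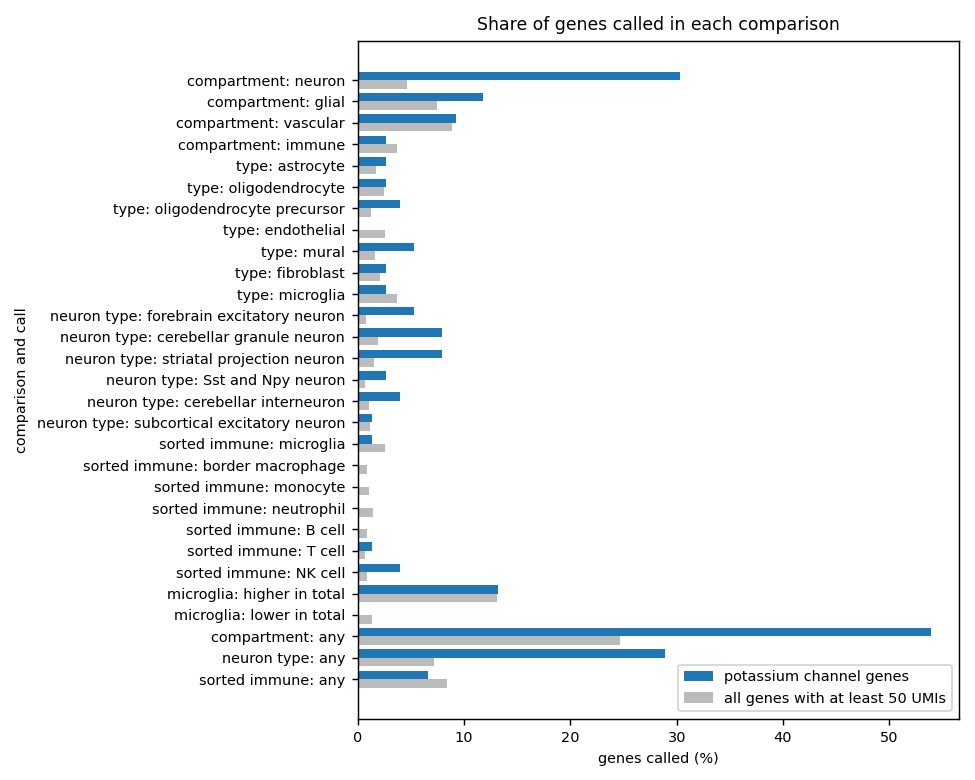
Bars give the percentage of genes called in each comparison, for the 76 members (blue) and for all 16083 genes with at least 50 UMIs (grey). For neurons the values are 30.3% and 4.68%, and for members higher in microglia of total brain 13.2% and 13.1%.

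The 8 neuron-called members with the largest ratios were 7 voltage-gated subunits and 1 auxiliary subunit, of which 6 are described. Kcnh4, of the EAG-related ELK channels, was at 48.8 CPM [44.6–53.2] in neurons, with 49.3, 38.5, 45.5 and 55.0 CPM in suffixes 1 to 4, and next at 5.78 in astrocytes. All 4 neuron values lay above all values of the other types, a 7.35-fold difference. Kcnh3, of the same ELK group, was at 208 CPM in neurons (182 to 238 by suffix) and 41.0 in astrocytes (21.3 to 64.5), a 4.98-fold difference. Kcnh7, of the ERG group, was at 226 CPM (208 to 246) and 46.5 in oligodendrocyte precursors. These 3 genes had no overlap between the suffixes of neurons and those of the next type.

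Kcnip2 encodes KChIP2, a calcium-binding subunit that brings Kv4 channels to the membrane. It was at 124 CPM in neurons, with 117, 139, 107 and 139 by suffix, against 19.9 [7.31–43.4] in oligodendrocyte precursors and 17.3 in astrocytes, a 5.98-fold difference. Kcnf1, a silent subunit that modifies other voltage-gated channels, was at 33.0 CPM and next at 6.64 in oligodendrocyte precursors on 2 UMIs, a ratio of 4.97 with a counting interval from 1.36 to 41.2. Kcna4, a fast-inactivating channel of axons, was at 54.4 CPM and 12.7 in astrocytes. In every suffix with at least 20 cells of both types, each of these 6 members was higher in neurons than in the next type. The call of Kcnf1 was lost with the cell filter of 1000 genes and 5% mitochondrial UMIs (log2 ratio 0.85).

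The next type was astrocytes or oligodendrocyte precursors for 20 of the 23 neuron-called members. The 23 stood at a median of 20.6% of their neuron level in astrocytes, where the 8 neuron markers stood at a median of 34.9% (16.1% to 59.0%), and at 20.6% in oligodendrocyte precursors, where the markers stood at 30.7%. Kcnc1 and Kcnt1, highest in neurons at 409 and 548 CPM, missed the call because they stood at 278 and 334 CPM in astrocytes. Kcnc1 ran from 33.9 to 142 CPM in the astrocyte clusters with up to 10.9% of the neuron marker level and stood at 467 and 772 CPM in the clusters with 38.9% and 44.0%. With these 2 clusters left out, a choice made after the data were seen, 25 members were called for neurons against 5.29% of all genes. With the precursor cluster left out too, which left no precursor type of 50 cells, the count was 33 against 9.14%, and Kcnc1 was among them. The part of neuron RNA in the levels of glia was not tested.

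Kcnj10 encodes Kir4.1, the main channel by which astrocytes and oligodendrocytes clear potassium. It was at 250 CPM [230–272] in oligodendrocytes, with 194, 248, 282 and 224 by suffix, at 160 CPM in astrocytes (135 to 203), at 143 in oligodendrocyte precursors and at 10.1 in neurons. The highest vascular or immune level was 17.4 CPM in endothelial cells, a 13.7-fold difference, and every suffix of the glial types lay above every suffix of all other types. Kcnj16 encodes Kir5.1, the partner of Kir4.1. It was at 46.5 CPM [25.4–78.0] in oligodendrocyte precursors and 42.2 [33.0–53.0] in astrocytes, but at 0.918 [0.111–3.32] in oligodendrocytes on 2 UMIs. Kcnj10 was thus high in all 3 glial types, and Kcnj16 in 2 of them.

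Kcnn2, the small-conductance calcium-activated channel SK2, was at 379 CPM [350–409] in astrocytes and 105 in neurons. The 4 astrocyte values (291, 244, 388 and 422) lay above all neuron values (91.8 to 111). Kcnk1, the 2-pore channel TWIK-1, was at 188 CPM in astrocytes (123 to 349) and 80.9 in neurons, a 2.30-fold difference. These were the 2 members called for astrocytes among single types, 2.63% against 1.72% of all genes. Without the 2 astrocyte clusters rich in neuron markers both remained called, and Kcnn1, the related SK1, was called beside them. The call of Kcnk1 was lost with the cell filter of 1000 genes and 5% mitochondrial UMIs (log2 ratio 0.54).

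Oligodendrocytes, which wrap axons in myelin, were called for Kcna1 and Kcna6, 2 of 76 members (2.63%) against 2.46% of all genes. Kcna1, a low-threshold channel known from the axon beside the node of Ranvier, was at 488 CPM [459–519], with 334, 283, 560 and 549 by suffix, and at 242 in oligodendrocyte precursors and 192 in neurons. Kcna6 was at 156 CPM (146 to 159), 76.3 and 54.3. Both ratios to the precursors, 2.01 and 2.02, lay at the limit. The call of Kcna1 was lost without suffix 1 or suffix 4 of the total sample, and that of Kcna6 without suffix 3 or suffix 4. That of Kcna1 was also lost with equal weight per suffix (log2 ratio 0.877). Adding 10 CPM ended the calls of Kcna1 and Kcna6 (0.982 and 0.939). Both were lost with the cell filter of 1000 genes and 5% mitochondrial UMIs (log2 ratios 0.54 and 0.73), and that of Kcna6 also at Leiden resolutions 0.5 and 2 and with Kcn genes among the variable genes. Kcnk13 encodes THIK-1, a 2-pore channel known from microglia. It was at 129 CPM [115–145] in oligodendrocytes (97.2 to 141 by suffix) and at 66.9 [58.4–76.4] in microglia (48.1 to 80.6), a ratio under 2-fold, and at 5.78 CPM or less in the other 6 types compared.

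Oligodendrocyte precursors were called for 3 members (3.95% against 1.27%). Kcnip3, a calcium-binding Kv4 subunit also known as DREAM, was at 262 CPM [208–327] in precursors and 66.6 in neurons, and at 176 and 262 in its 2 suffixes. Its call for the precursors as a single type was lost with the cell filter of 1000 genes and 5% mitochondrial UMIs (log2 ratio 0.93). Kcnd3, a Kv4 channel that such subunits bind, was at 120 CPM [83.7–165] in precursors and 58.3 in pooled neurons, but at 206 in cerebellar interneurons alone. The 2.03-fold difference to pooled neurons lay at the limit. Leaving out suffix 2 or suffix 4, the same filter (0.13, log2) and TMM scaling (0.65) each ended the call. So did equal weight per suffix (0.815), 10 CPM added (0.923) and a minimum of 50 UMIs. Kcnh8 rested on 10 UMIs in precursors, at 33.2 CPM [15.9–61.0], and on 1 UMI in the next type, a ratio of 8.92 with a counting interval from 1.27 to 387. Leaving out any 1 of the 4 suffixes brought it under the minimum of UMIs.

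Mural cells were set apart by the ATP-sensitive channel. Kcnj8 encodes Kir6.1, the pore of that channel in pericytes and smooth muscle, and was at 1031 CPM [913–1160] in mural cells, with 1129 and 660 in the 2 suffixes with at least 20 such cells. Fibroblasts were next at 17.7 and endothelial cells at 16.7 CPM, and none of the other 5 types passed 7.51 CPM. Of 120 mural cells 50 had a Kcnj8 UMI, 41.7% (exact interval 32.7% to 51.0%), at a median depth of 1333.5 UMIs, and 21 of 5189 neurons did, 0.405% at 1420. After thinning to 1000 UMIs per cell the shares were 35.2% and 0.223%, with 32 mural cells and 1608 neurons too shallow to be counted. Abcc9, the regulatory subunit that Kir6.1 assembles with and no member of the family, was at 1105 CPM in mural cells and 7.51 in astrocytes.

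Kcne4, a small auxiliary subunit, was at 138 CPM [97.0–190] in mural cells and 73.9 [47.8–109] in fibroblasts, while no type outside the vessels passed 0.873 CPM, 9 UMIs in neurons. Its ratio to neurons was 158 with a counting interval from 74.8 to 372. Kcnmb1, the beta subunit that tunes the BK channel in smooth muscle, was at 59.6 CPM [34.0–96.7] on 16 UMIs in mural cells, 3.70 in endothelial cells and 1.16 in astrocytes on 2 UMIs, a ratio of 51.6 with a counting interval from 12.1 to 462. Leaving out suffix 4 brought Kcnmb1 under the minimum of UMIs, and leaving out suffix 3 left fewer than 50 fibroblasts, too few for a type, and 4 vascular calls. Of single types, mural cells were called for 4 members (5.26% against 1.62%), among them Kcnj8, Kcnmb1 and Kcnj12, an inward rectifier at 52.1 CPM [28.5–87.4] on 14 UMIs and at 20.2 in astrocytes. Granule neurons, pooled with the other neurons in this call, held Kcnj12 at 62.4 CPM on 55 UMIs, above the mural level.

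Fibroblasts were called for 2 members (2.63% against 2.13%). Kcnk5, the acid-sensitive 2-pore channel TASK-2, was at 91.7 CPM [62.3–130] on 31 UMIs and at 3.67 in oligodendrocytes. Kcnj2, the strong inward rectifier Kir2.1, was at 79.8 CPM [52.6–116] in fibroblasts, 21 in pooled neurons, 19.2 in microglia and 14.6 in endothelial cells. Striatal projection neurons, part of the pooled neurons, held it at 72.9 CPM. Endothelial cells were called for 0 members, against 2.58% of all genes, with 237 CPM over all members without Kcnq1ot1 in 692 cells and 6220825 UMIs. Kcna5 and Kcnq1 were highest there, at 8.84 and 8.36 CPM, under the minimum of 10 CPM.

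**Figure D3:**
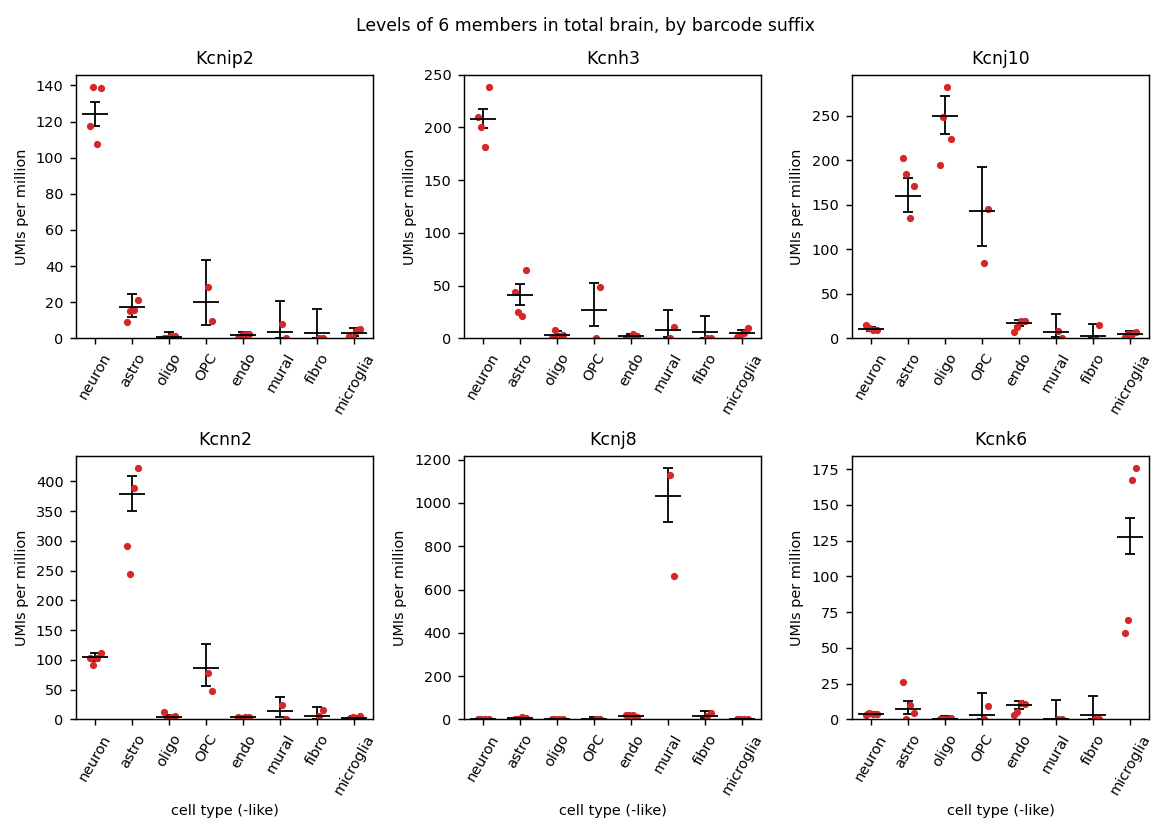
Levels of Kcnip2, Kcnh3, Kcnj10, Kcnn2, Kcnj8 and Kcnk6 (UMIs per 1000000, axes from 0) in 8 types of total brain. Black bars give the level over all cells with its 95% Poisson interval and red points the suffixes with at least 20 cells of the type; Kcnk6 in microglia is split into 60.6 and 69.5 against 167 and 176.

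Among types of neurons, 22 members (28.9%) were called for 1 type against the highest of the other 5, as were 7.18% of all genes. The members' share was above the background in 5 of the 6 and near it in subcortical neurons. In Sst and Npy neurons it rested on 2 members, Kcnip1 and Kcns3, whose calls were each lost under some alternatives. In cerebellar interneurons it rested on 3, of which Kcnd3 and Kcnc4 were lost under some. The 6 types were 2208 forebrain excitatory, 1399 Sst and Npy, 898 cerebellar granule, 433 striatal projection, 171 cerebellar interneuron and 80 subcortical excitatory cells. The Sst and Npy type was named from a list of forebrain inhibitory interneurons, a name not used here because its clusters also held UMIs of Slc17a6, a marker of excitatory neurons. The median depth of granule neurons, 782.5 UMIs, was the lowest of the 6 and that of subcortical neurons, 2755.5, the highest.

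Striatal projection neurons, which carry the output of the striatum, were called for 6 members (7.89% against 1.55% of all genes). Kcnk2, the mechanically gated 2-pore channel TREK-1, was at 328 CPM [291–370], with 368, 290, 364 and 301 by suffix, and at 60.2 in forebrain excitatory neurons, a 5.39-fold difference. Kcnab1, a beta subunit that speeds the closing of Kv1 channels, was at 245 CPM (222 to 318) and 60.1 in granule neurons. Kcnip2 was at 467 CPM [422–516], with 451, 425, 411 and 532, against 124 in forebrain excitatory neurons and 4.58 in cerebellar interneurons. No suffix of these 3 members in striatal neurons was as low as any suffix of the other types. Kcnj2 and Kcnj4, which carry the strong inward rectification these cells are known for, were both at 72.9 CPM, against 22.9 and 34.3 in forebrain excitatory neurons, and Kcnh4 was at 139 against 68.7, at the 2-fold limit.

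Cerebellar granule neurons, the small and numerous cells of the cerebellar cortex, were also called for 6 members (7.89% against 1.93%), 3 of them 2-pore domain channels. Kcnk12, the 2-pore subunit THIK-2, was at 57.8 CPM [43.1–76.1] and at 9.07 in Sst and Npy neurons, a 5.84-fold difference. Kcnk10, the channel TREK-2, was at 174 CPM (112 to 244 by suffix) and 35.6, and Kcnk3, the acid-sensitive TASK-1 known for the standing leak current of these cells, at 260 and 63.5. Kcnc1, the fast Kv3.1 channel, was at 1246 CPM and next at 557 in Sst and Npy neurons, a 2.23-fold difference. Kcnmb4os2, a noncoding antisense RNA, was at 25.0 CPM on 22 UMIs and at 3.94 on 1 UMI in subcortical neurons, a ratio of 6.34 with a counting interval from 1.02 to 262. Its call was lost without suffix 3, with the cell filter of 1000 genes and 5% mitochondrial UMIs and with a minimum of 50 UMIs. The call of Kcnk12 was lost with that cell filter too. Kcnj12 was at 62.4 CPM against 15.7 on 4 UMIs. In all 4 suffixes Kcnk12, Kcnk10, Kcnk3 and Kcnc1 were higher in granule neurons than in the next type.

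Cerebellar interneurons were called for 3 members, all voltage-gated (3.95% against 1.09%). Kcna2, the Kv1.2 channel dense in the terminals of basket cells, was at 1343 CPM [1193–1505], with 1308 and 1419 in its 2 suffixes, and at 303 in subcortical neurons, a 4.42-fold difference. Kcnd3 was at 206 CPM [150–276] and 70.8, a call lost with the cell filter of 1000 genes and 5% mitochondrial UMIs (log2 ratio 0.72) and with a minimum of 50 UMIs. Kcnc4 was at 133 CPM [89.0–191] and 59.4 in forebrain excitatory neurons, a call lost without suffix 4 and with a minimum of 50 UMIs. It was also lost at Leiden resolution 0.5 (log2 ratio 0.966) and with Kcn genes among the variable genes (0.871). TMM scaling (0.726) and a cell filter of 200 genes and 20% mitochondrial UMIs (0.582) ended it too. With a cell filter of 1000 genes and 5% mitochondrial UMIs the direction of Kcnc4 turned, to -0.385 on the log2 scale. Subcortical excitatory neurons were called for 1 member (1.32% against 1.17%), Kcnc2, the Kv3.2 channel, at 417 CPM [341–504] with 443 and 370 by suffix and at 98.7 in Sst and Npy neurons. The call of Kcnc2 was lost with Kcn genes among the variable genes (0.455, log2) and at Leiden resolution 2 (0.79).

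Forebrain excitatory neurons were called for 4 members (5.26% against 0.746%). Kcnh7 was at 349 CPM (276 to 373 by suffix) and 127 in Sst and Npy neurons (108 to 151). Kcnv1, a silent subunit, was at 68.0 CPM and 26.3 in striatal neurons, and Kcnt2, a sodium-activated channel, at 94.6 and 43.3 in subcortical neurons on 11 UMIs. The call of Kcnt2 was lost without suffix 4 and with 10 CPM added. Kcns1, another silent subunit, was at 16.8 CPM and 7.67 in Sst and Npy neurons. Sst and Npy neurons were called for 2 members (2.63% against 0.684%). Kcnip1, a Kv4 subunit, was at 79.9 CPM (67.3 to 133) and 22.7 in granule neurons, and shares its strand with 1 overlapping gene, so its reads may be split. Its call was lost with Kcn genes among the variable genes, at Leiden resolution 2 and with a cell filter of 200 genes and 20% mitochondrial UMIs, at log2 ratios from 0.60 to 0.855. Kcns3 was at 13.3 CPM and next at 4.58 on 1 UMI, a ratio of 2.89 with a counting interval from 0.489 to 117. The call of Kcns3 was lost without suffix 3 or suffix 4. It was also lost with 10 CPM added (log2 ratio 0.673), equal weight per suffix (0.694), TMM scaling and a minimum of 50 UMIs. The cell filter of 200 genes and 20% mitochondrial UMIs (0.828) ended it too. Kcnq1ot1 ran from 1974 CPM in granule neurons to 3496 in forebrain excitatory neurons and was called for none of the 6.

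**Figure D4:**
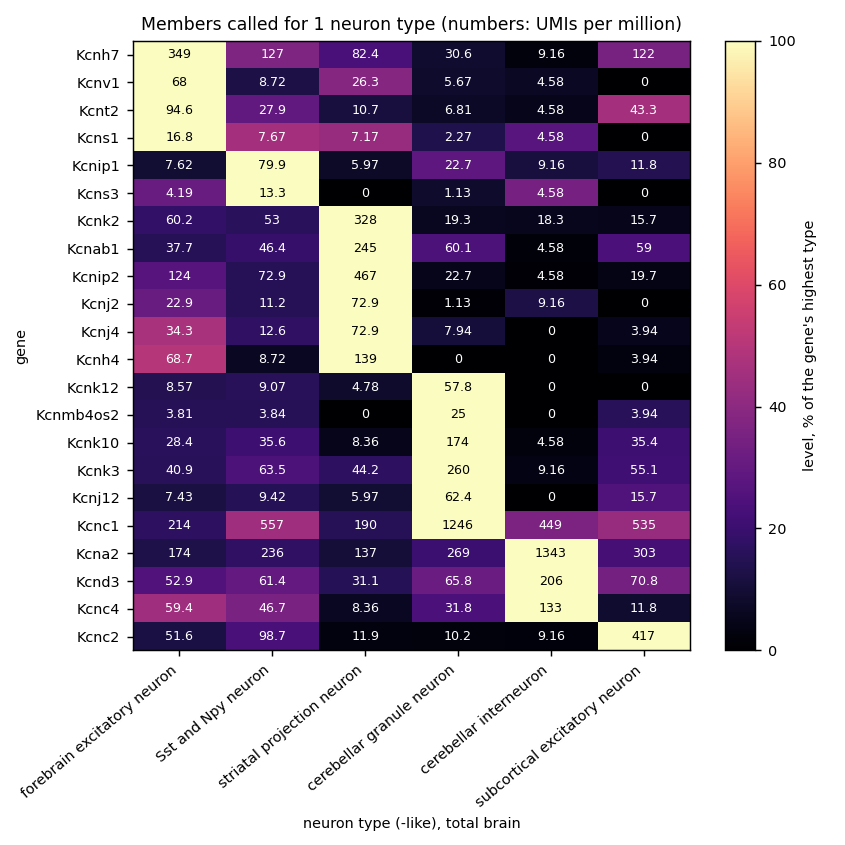
The 22 members called for 1 neuron type (rows) in 6 neuron types of total brain (columns), coloured by the share of the row's highest level, with levels in UMIs per 1000000 as numbers. Striatal and granule columns hold 6 bright called rows each, and Kcna2 at 1343 stands out in cerebellar interneurons.

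In the sorted sample, immune types were compared with each other and 5 of 76 members (6.58%) were called, against 8.36% of all genes. T cells were called for Kcnn4, the KCa3.1 channel that keeps calcium flowing during T cell activation (1.32% of members against 0.64% of all genes). It was at 114 CPM [97.8–132] in T cells, with 102, 94.1, 121 and 123 by suffix, at 22.8 in B cells and at 6.15 in NK cells. All T cell values lay above all values of the other immune types. The call depended on the cells kept and on the clusters: its log2 ratio was 0.89, not called, with a cell filter of 1000 genes and 5% mitochondrial UMIs, -0.115 with clusters at Leiden resolution 0.5 and 0.02 at resolution 2. Of 670 T cells 154 had a Kcnn4 UMI (23.0%) and of 4451 microglia 40 did (0.899%), at median depths of 2096 and 2034 UMIs (10.7% and 0.524% after thinning each cell to 1000 UMIs).

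NK cells were called for 3 members (3.95% against 0.877%). Kcnj8 was at 138 CPM [101–185] in NK cells, with 133, 189 and 167 in the 3 suffixes with at least 20 such cells, at 29.7 in T cells and at 1.27 in microglia. It had 0 UMIs in B cells, monocytes, neutrophils and border macrophages, with upper limits of 3.12, 5.61, 8.46 and 16.4 CPM. Of 155 NK cells 35 had a UMI (22.6%, 15.4% after thinning, at 2046 UMIs) and of 4451 microglia 10 (0.225%, 0.167% after thinning). Kcnab2, a Kv1 beta subunit, was at 111 CPM [77.5–153] and 43.0 in T cells, with 158, 68.6 and 51.2 against 40.4, 52.2 and 42.3 in suffixes 1, 3 and 4. Kcnip3 was at 33.8 CPM on 11 UMIs and 16.2 in microglia, where it was seen in all 4 suffixes, while 1 of 3 suffixes of NK cells had 0. Without suffix 1 of the sorted sample the calls of Kcnab2 and Kcnip3 were lost and 3 members were called in all. That of Kcnip3 was also lost without suffix 2 or suffix 3, and TMM scaling ended both (log2 ratios 0.87 and 0.45). Removing called doublets (0.933), equal weight per suffix (0.825) and 10 CPM added (0.742) each ended the call of Kcnip3. So did the cell filter of 1000 genes and 5% mitochondrial UMIs (0.425). A minimum of 50 UMIs ended all 3 calls of NK cells. Microglia were called for Kcnd1, the Kv4.1 channel (1.32% against 2.57%), at 22.8 CPM [19.8–26.0] against 5.08 in B cells on 6 UMIs. Border macrophages, monocytes, neutrophils and B cells were called for 0 members, where 0.864%, 1.11%, 1.4% and 0.895% of all genes were called.

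Kcnk13 and Kcnk6 were the most counted 2-pore channels of microglia in the sorted sample, with 1083 and 490 UMIs. Kcnk13 was at 115 CPM [108–122] in microglia (96.0 to 128 by suffix) and 57.9 [30.8–99.0] in border macrophages, and at 16.1 or less in the other immune types. Kcnk6, the channel TWIK-2, was at 51.9 CPM [47.4–56.7] in microglia and 40.1 [18.3–76.1] in border macrophages. Neither was called, because the border macrophages, which share the brain with microglia, lay within 2-fold of them.

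In the total sample microglia were called for Kcnk6 and Kcnk12, 2 of 76 members against 3.67% of all genes. Kcnk6 was at 128 CPM [116–141] and 9.97 in endothelial cells, an 11.7-fold difference that all 4 suffixes shared. Its suffixes split in pairs: 60.6 and 69.5 CPM in suffixes 1 and 2 against 167 and 176 in suffixes 3 and 4. Kcnk12 was at 29.2 CPM [23.7–35.7] in microglia, with 32.2, 30.3, 31.2 and 24 by suffix. Pooled neurons held 12.2 CPM, granule neurons among them 57.8, and astrocytes, the next type in this call, 13.3. This 2.12-fold difference lay near the limit: the call was lost without suffix 2, with a looser cell filter of 200 genes and 20% mitochondrial UMIs, with the looser naming, with 10 CPM added, at Leiden resolution 2 and with the stricter cell filter. Its log2 ratio in these 6 cases ran from 0.05 to 0.99 and was lowest with a cell filter of 1000 genes and 5% mitochondrial UMIs. Of 614 microglia 83 had a Kcnk12 UMI (13.5% [10.9–16.5]) at a median depth of 3801 UMIs, and of 5189 neurons 120 did (2.31%) at 1420. Thinned to 1000 UMIs the shares were 3.75% and 1.34%.

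Microglia of the total sample were set beside those of the sorted sample. Of 76 members 10 (13.2%) were at least 2-fold higher in the total sample, as were 13.1% of all genes, and 0 were at least 2-fold lower, against 1.32%. The members' share was near the background under this call, which needs 10 CPM. Their median log2 ratio was 1.15 against 0.22 for all genes, and with no minimum of UMIs and CPM 42 members (55.3%) were higher against 22.8% of all genes. The 3 largest ratios were those of Kcnk12, Kcnc1 and Kcnt1. Kcnk12 was at 29.2 CPM in the total and 1.16 [0.581–2.08] in the sorted sample, where suffixes ran from 0 to 1.57, a 14-fold difference with no overlap of suffixes. Only 11 of 4451 sorted microglia had a Kcnk12 UMI (0.247%, and 0.143% after thinning). Kcnc1 was at 15.8 CPM and at 0.318 on 3 UMIs, a ratio of 49.8 with a counting interval from 16.1 to 249, and Kcnt1 was at 13.7 and 1.59 CPM. The 8 neuron markers summed to 373 CPM in microglia of the total sample and 21.8 in those of the sorted sample. In pooled neurons Kcnc1 stood at 409 CPM, Kcnt1 at 548 and Kcnk12 at 12.2. Granule neurons alone held Kcnk12 at 57.8 CPM, above its 29.2 in microglia of the total sample. The part of neuron RNA in these differences was not tested. Others higher in the total sample included Kcnma1, Kcnj9, Kcnq1ot1, Kcnj2 and Kcnk6. Among them Kcnj2 was at 19.2 and 7.09 CPM without overlap of suffixes, while Kcnk6 at 128 and 51.9 overlapped (60.6 to 176 against 33.7 to 63.4). Kcnk13 went the other way without reaching 2-fold, at 66.9 CPM in the total and 115 in the sorted sample, with no overlap between 48.1 to 80.6 and 96.0 to 128. Kcnd1 was at 21 and 22.8 CPM and Kcnip3 at 19.8 and 16.2.

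**Figure D5:**
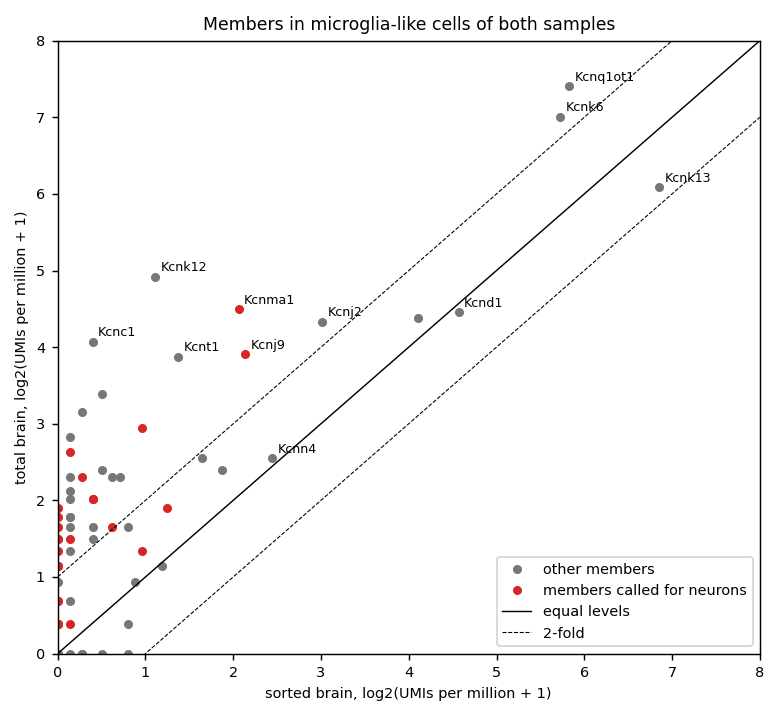
Each point is 1 of 72 members in microglia of the sorted sample (horizontal) and the total sample (vertical), as log2(UMIs per 1000000 + 1), with red for members called for neurons, a solid line for equal levels and dashed lines for 2-fold. Kcnk12 lies far above the line (29.2 against 1.16 CPM), and Kcnk13 below it (66.9 against 115).

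Of 29 partner genes, such as subunits that join the channels, pumps and cotransporters of potassium and the related HCN channels, 6 were called for neurons, 3 for glia, 2 for vascular types and 0 for immune types, and 18 for no compartment. The shares of all genes called were 4.68%, 7.5%, 8.86% and 3.67% for the 4 compartments in this order. For neurons the largest ratios were those of Lrrc55 and Slc12a5. Lrrc55, a BK channel subunit, was at 16.3 CPM in neurons and 3.32 in oligodendrocyte precursors on 1 UMI. Slc12a5, the neuronal cotransporter KCC2, was at 338 and 92.9. For glia Hcn2, a pacemaker channel, led at 544 in oligodendrocytes and 85.6 in neurons. Cntn2, an axon adhesion protein that gathers Kv1 channels, followed at 639 and 151. The 2 vascular calls were Abcc9 and Slc12a7. Slc12a7, the cotransporter KCC4, was at 127 CPM in fibroblasts and 9.96 in oligodendrocyte precursors on 3 UMIs.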

How the data were processed

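Single-cell RNA was counted in 2 pooled mouse brain samples. The deposited matrices hold raw UMI counts per gene and cell, made by the authors with Cell Ranger 3.0.2 on mm10 per the submitters' processing notes, while the file headers give 3.0.2 for the sorted and 3.1.0 for the total sample. The sources used here do not say whether counting used strand, so reads of members that overlap other genes may not be told apart from theirs.

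Cells passing a minimum of 500 genes and a maximum of 10% mitochondrial UMIs were clustered with scanpy 1.11.5 (2000 variable genes without Kcn genes, 30 components, 15 neighbours, Leiden resolution 1, repeated within compartments). Clusters were named from 28 marker lists when at least 50% and at least 3 markers were raised 2-fold, and stayed unnamed when at least 80% of another list was raised too (the erythroid list, and the T and NK cell lists against each other, did not count) or when their leading genes held more markers of another list. This naming rule was adjusted after clusters were seen, with the looser rule as an alternative. A doublet caller marked 0.844% of sorted and 0.0747% of total cells, a rate too low to rely on in the total sample, so doublets remain possible there, and called cells were kept. All 76 members matched GENCODE M21.

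The members, the marker and partner lists and the rules were chosen with earlier results of these data known. Members named are the 3 with the largest ratios per call, 8 for neurons and 3 per direction in microglia, and others were named after their values were seen. Levels are UMIs summed per type with exact Poisson intervals. No test between groups was run, since each group has 1 sample. Only the vascular call was tried on simulated data, with genes raised in mural cells and counting error as the only spread. Such data cannot check the other calls or the part of neuron RNA in other types. Alternatives covered cell filters, clustering, doublets, scaling (TMM, edgeR 4.0.16), minimum UMIs, added CPM and leaving out each barcode suffix. Results of 4 members are not reported here by name, and counts include them.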

Additional observations from a re-analysis of the deposited data

Results flagged for a closer look

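Cells outside the comparisons held 6 signals of members above every compared type of their sample. Kcnk1 was at 233 CPM in a cluster of 1975 choroid plexus-like cells and at 239 CPM in another of 209, both sorted, with endothelial cells next at 13.7 CPM. In an unnamed cluster of 343 cells of the sorted sample, Kcnk1 was at 88.6 CPM. Kcnh1 was at 14.5 CPM on 21 UMIs in the choroid plexus-like cluster of 209 cells. In the total sample, Kcnk3 was at 136 CPM on 37 UMIs in an unnamed cluster of 172 cells that raised neuron and oligodendrocyte markers together, against 67.0 in mural cells. Granule neurons, part of the pooled neurons, held Kcnk3 at 260 CPM, above that cluster. Kcng4 was at 12.7 CPM on 10 UMIs in an unnamed cluster of 388 cells, against 5.53 in neurons. These differences have no replicate check.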

How the results depend on the processing

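Immune calls in the total sample fell from 2 to 1 with a cell filter of 200 genes and 20% mitochondrial UMIs, with one of 1000 genes and 5%, with the looser naming, at Leiden resolution 2 and with 10 CPM added (1.32% of members against 3.23% to 4.51% of all genes). The stricter cell filter gave 15 neuron calls (12 of them among the 23; 19.7% against 3.35% of all genes) and 3 vascular calls (2 among the 7; 3.95% against 6.35%). Of 54 values of named members it could give, 35 stayed called. A minimum of 50 UMIs gave 1 vascular call (1.32% against 5.86%) and 2 sorted immune calls (2.63% against 5.17%). No minimum gave 12 sorted immune calls (15.8% against 17.8%) and 42 members higher in microglia of the total sample (55.3% against 22.8%). TMM scaling gave 1 member lower there (1.32% against 7.88%). Directions turned for Kcnc4 in cerebellar interneurons (-0.385, stricter filter), Kcnn4 in T cells (-0.115, Leiden resolution 0.5) and Kcnh8 in glia (-1.3, glial clusters over 20% of the neuron marker level left out, where the precursor type was lost); the cause of the first 2 was not tested.

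Leaving out 1 suffix gave 19 to 24 neuron, 8 to 11 glial, 4 to 7 vascular and 1 to 2 immune calls, 18 to 25 among neuron types, 3 to 6 in sorted immune types, and 9 to 12 higher and 0 lower in microglia. The shares of all genes were 4.5% to 4.84%, 7.29% to 8.64%, 6.3% to 8.86%, 3.62% to 4.13%, 6.56% to 7.18%, 7.91% to 8.36%, 11.9% to 14.7% and 1.29% to 1.7%, in this order. No paired analysis was possible because each group has 1 sample. Types of few cells, such as 83 fibroblasts, limit what counts can show.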
